A study of Mus musculus with 28 samples.

Results

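H3K27ac, the acetylation of histone H3 on lysine 27 that marks active promoters and enhancers, was compared between c-Kit+ and Thy1+ spermatogonia of wild-type mice. The comparison rests on 4 libraries, 2 of c-Kit+ and 2 of Thy1+ cells, chosen by their labels from the 28 libraries of the series. All 4 came from testes of C57BL/6 mice at postnatal day 7, wild type for Scml2, the gene deleted in the other arm of the study. Beside them stand the Scml2 knockout libraries of the same C57BL/6 background, 2 each of Thy1+ and c-Kit+ spermatogonia at postnatal day 7 and of adult pachytene spermatocytes and round spermatids. A further 16 input libraries (chromatin without immunoprecipitation) served to remove regions that are called without the antibody. The labels give magnetic sorting or sedimentation as the isolation method for all germ cells, without saying which was used where. They do not say whether the replicates came from separate animals or pools, so p-values measure only the spread between these libraries. Overlapping peaks of the 4 libraries merged into 34892 regions after 659 that overlapped an input peak were removed. Of these, 9972 were called in all 4 libraries.

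Spermatogonia pass from a self-renewing to a differentiating state under retinoic acid. Thy1, a surface glycoprotein, is used to enrich for the undifferentiated cells that include the stem cells, and KIT, the receptor for stem cell factor, appears on the surface of differentiating spermatogonia. KIT is also known on Leydig cells, the steroid-producing cells between the tubules, and THY1 on stromal cells. An H3K27ac peak at a promoter goes with transcription, while peaks in introns and between genes often mark enhancers, which differ more between cell types than promoters do.

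The sequences below belong to the loci on which the results turn. The first pair are the mature forms of miR-202, a gonadal microRNA whose locus had more H3K27ac in c-Kit+ cells. They are given 5′ to 3′ from RefSeq (GRCm38.p6), with the seed, bases 2 to 8, in capitals. The hairpin lies on the minus strand of chromosome 7, from 139957689 to 139957760, and the 2 arms have different seeds.
mmu-miR-202-3p: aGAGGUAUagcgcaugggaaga
mmu-miR-202-5p: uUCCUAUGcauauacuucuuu
The next 5 are the 250 bases upstream of RefSeq starts that lay in or beside a region of one of the sets described here. Capitals mark the GC box (GGGCGG on either strand), an element of promoters rich in CpG. Cyp11a1 (chr9:58014702-58014951, plus strand) and Lhcgr (chr17:88792015-88792264, minus strand) belong to the c-Kit+ only calls, Mgst1 (chr6:138140277-138140526, plus strand) rose in c-Kit+ cells, Trpc1 (chr9:95750349-95750598, minus strand) fell, and Des (chr1:75360042-75360291, plus strand) was called in both Thy1+ libraries only.
Cyp11a1: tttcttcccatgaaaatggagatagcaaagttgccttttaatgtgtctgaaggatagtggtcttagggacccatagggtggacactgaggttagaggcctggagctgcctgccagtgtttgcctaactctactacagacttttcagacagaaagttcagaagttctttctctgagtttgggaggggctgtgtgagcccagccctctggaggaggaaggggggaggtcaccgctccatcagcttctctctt
Lhcgr: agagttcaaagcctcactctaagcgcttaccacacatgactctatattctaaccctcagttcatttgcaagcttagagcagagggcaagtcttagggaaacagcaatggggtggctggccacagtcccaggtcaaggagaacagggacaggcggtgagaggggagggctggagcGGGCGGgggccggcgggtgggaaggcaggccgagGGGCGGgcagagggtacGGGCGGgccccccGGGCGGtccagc
Mgst1: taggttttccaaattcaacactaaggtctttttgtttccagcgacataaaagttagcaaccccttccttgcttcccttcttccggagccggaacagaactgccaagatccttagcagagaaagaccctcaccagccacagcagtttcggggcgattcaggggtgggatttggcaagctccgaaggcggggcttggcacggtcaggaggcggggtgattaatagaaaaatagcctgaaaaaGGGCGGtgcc
Trpc1: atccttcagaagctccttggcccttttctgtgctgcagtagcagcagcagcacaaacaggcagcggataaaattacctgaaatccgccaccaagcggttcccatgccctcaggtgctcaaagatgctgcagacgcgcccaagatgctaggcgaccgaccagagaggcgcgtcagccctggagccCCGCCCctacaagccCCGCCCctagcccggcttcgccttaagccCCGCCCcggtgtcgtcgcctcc
Des: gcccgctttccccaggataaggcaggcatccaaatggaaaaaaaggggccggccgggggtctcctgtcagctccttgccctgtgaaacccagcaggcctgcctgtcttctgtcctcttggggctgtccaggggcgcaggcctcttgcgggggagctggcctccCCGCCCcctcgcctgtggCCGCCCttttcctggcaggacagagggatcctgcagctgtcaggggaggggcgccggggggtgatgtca
The Cyp11a1 stretch holds no GC box, Mgst1 holds 1, Des 2, Trpc1 3 and Lhcgr 4. The ratio of observed to expected CpG over the 300-base windows was 0.0541 at Cyp11a1, 0.344 at Des, 0.472 at Lhcgr, 0.607 at Mgst1 and 0.755 at Trpc1. The Mgst1 region held a second RefSeq start, whose upstream stretch (chr6:138141337-138141586) is not printed. That stretch holds no GC box, and the ratio over its window was 0.0731.

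The libraries differed in how much was called. The numbers of peaks called were 19135 and 17877 for Thy1+ and 29794 and 19638 for c-Kit+ cells. The first c-Kit+ library stood apart: 11786 regions, 33.8% of all, were called in it alone. Without peaks over input regions, c-Kit+ libraries held 24306 ± 7070 peaks and Thy1+ libraries 18078 ± 857 (SD, n = 2 each), a log2 difference of 0.40 (exact permutation test, 2-sided, p = 0.333, the smallest that 2 against 2 allows). The difference was 0.10 without the first c-Kit+ library and 0.10 with stricter peaks (−log10 q of at least 5). Peaks that lay within 1 kb of a start in the authors' gene columns made up 67.9% and 71.6% in Thy1+ and 47.9% and 66.6% in c-Kit+ cells, a difference of -12.5 percentage points (exact permutation test, 2-sided, p = 0.333, again the smallest possible). It was -3.16 points without the first c-Kit+ library, -3.97 points when each library was limited to an equal number of its strongest peaks, and -5.18 points with stricter peaks. Read depth is unknown. The background height, which stands in for it, was 0.908 and 0.658 in the Thy1+ and 0.754 and 0.613 in the c-Kit+ libraries. Peaks of 5 or 6 stacked fragments were the lowest called.

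At the regions called in all 4 libraries, 21 of 9972 (0.211%) differed between the populations in limma (adjusted p under 0.05), 16 higher (0.16% of those tested) and 5 lower (0.0501%) in c-Kit+ cells. The value tested is the log2 fold enrichment, the height of the highest summit over the library's background, centred on the library's median. The limma SEs (median 0.234) rest mostly on the spread pooled over regions, with 56.3 prior against 2 residual degrees of freedom. They therefore say little about the replicates of a single region. Of the 16 rises, 9 were promoters and 3 lay in introns, and of the 5 falls 4 were promoters. At each of the 21 both c-Kit+ libraries lay on the same side of both Thy1+ libraries, as the plot by library shows for those listed under a single gene. The 21 were selected on these same 4 libraries, so this order is no separate evidence. The changes ran from 0.99 to 1.43 on the log2 scale for the rises and from -1.13 to -0.998 for the falls.

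**Figure D1:**
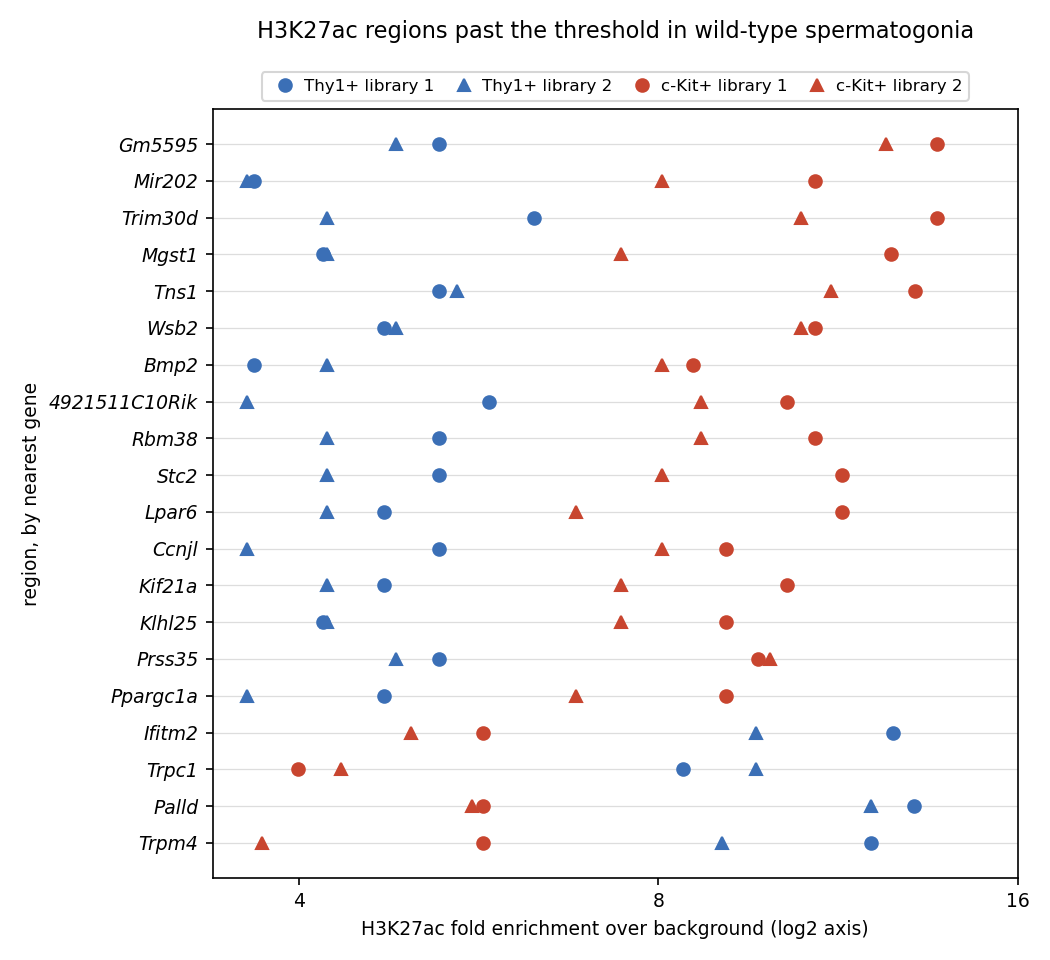
Fold enrichment of H3K27ac (log2 axis) in each wild-type library at regions with a limma adjusted p under 0.05 that are listed under a single nearest gene. Each point is 1 library. At the upper 16 regions the Thy1+ libraries lie between 3.62 and 6.29 and the c-Kit+ libraries between 6.82 and 13.7, and at the 4 others the order is turned.

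Upstream of Mir202 (chromosome 7, 139961382 to 139962386, 3622 bases before the hairpin), fold enrichment was 3.67 and 3.62 in Thy1+ cells, against 10.8 and 8.06 in c-Kit+ cells. Both c-Kit+ values stood far above the pair of Thy1+ values, which were close to the lowest that is called. The log2 change was 1.41 (SE 0.23, limma adjusted p = 0.000518). The rise did not stand alone: 4 further regions nearest to Mir202 were called in both c-Kit+ libraries and in neither Thy1+ library. One of them (139957278 to 139957802), with fold enrichments of 4.56 and 4.34, held the hairpin printed above. The others began 2503, 6152 and 6864 bases upstream, at fold enrichments of 5.70 and 5.58, 6.27 and 3.72, and 3.42 and 4.96. Between these, a region just upstream of the hairpin (139957860 to 139959258) was called at 7.41 and 5.58 in c-Kit+ cells and in only the second Thy1+ library, at 3.62. By contrast, the region on the far side of the hairpin (139949946 to 139951032) was called in all 4 libraries at 9.96, 6.64, 8.55 and 6.82, with a log2 change of -0.04 (limma adjusted p = 0.978).

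**Figure D2:**
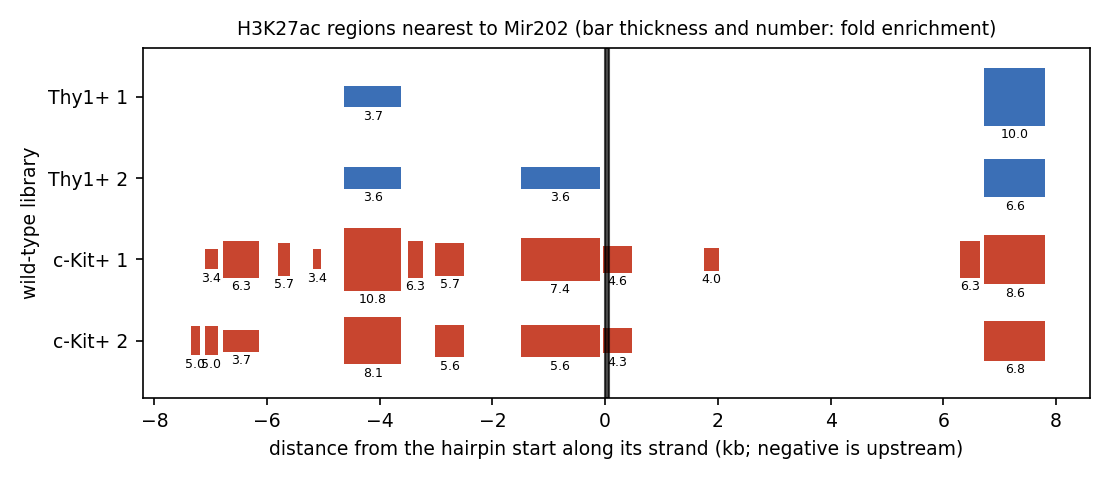
H3K27ac regions nearest to Mir202 by distance from the start of its hairpin (black line) in each wild-type library. Bars span the region, their thickness and the number give the fold enrichment, and a missing bar means no peak. The region at 3622 bases upstream stands at 10.8 and 8.06 in c-Kit+ and 3.67 and 3.62 in Thy1+ cells, and 4 regions over or upstream of the hairpin have a bar in both c-Kit+ rows and in neither Thy1+ row.

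The largest rise was at the promoter of Gm5595 (chromosome 7, 42692348 to 42693371), with 5.24 and 4.83 in Thy1+ and 13.7 and 12.4 in c-Kit+ cells. Among named enzymes, Mgst1 (chromosome 6, 138140161 to 138142233), which codes for a glutathione S-transferase of membranes, had a promoter region at 4.19 and 4.22 in Thy1+ and 12.5 and 7.44 in c-Kit+ cells. Its log2 change was 1.25 (SE 0.24, limma adjusted p = 0.00387), and the c-Kit+ libraries differed more from each other than the Thy1+ libraries did. Prss35 (chromosome 9, 86743269 to 86744507), a gene of the serine protease family, had promoter values of 5.24 and 4.83 against 9.69 and 9.92, with close replicates in both populations.

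Of the other rises, an exon region of Bmp2 (chromosome 2, 133553669 to 133555035), a ligand of the TGF-beta family, stood at 3.67 and 4.22 in Thy1+ and 8.55 and 8.06 in c-Kit+ cells (log2 change 1.13, SE 0.24, limma adjusted p = 0.0127). At the promoter of Stc2 (chromosome 11, 31368840 to 31370698), a secreted glycoprotein hormone, the values were 5.24 and 4.22 against 11.4 and 8.06. At Lpar6 (chromosome 14, 73237610 to 73239045), a receptor for lysophosphatidic acid, they were 4.72 and 4.22 against 11.4 and 6.82. As at all of the selected regions, the groups did not overlap at any of these, although the gap at Lpar6 was narrow. The promoter of Ppargc1a (chromosome 5, 51552156 to 51553316), a coactivator of mitochondrial genes, had the smallest rise, from 4.72 and 3.62 to 9.12 and 6.82 (log2 change 0.99, limma adjusted p = 0.0375).

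An intron of Tns1 (chromosome 1, 74007565 to 74009479), which codes for the focal adhesion protein tensin, stood at 5.24 and 5.43 in Thy1+ and 13.1 and 11.2 in c-Kit+ cells. An intron of Wsb2 (chromosome 5, 117360435 to 117362061), a SOCS-box protein, stood at 4.72 and 4.83 against 10.8 and 10.5, the closest c-Kit+ replicates among the rises in introns. The promoter of the kinesin gene Kif21a (chromosome 15, 91049035 to 91050460) rose from 4.72 and 4.22 to 10.3 and 7.44. At Ccnjl (chromosome 11, 43528766 to 43529586), a cyclin-like gene, the promoter rose from 5.24 and 3.62 to 9.12 and 8.06, and an intron region of the same gene (43548190 to 43549846) was called in the c-Kit+ libraries only, at 9.12 and 8.06. The remaining rises were in an intron of Trim30d, at the promoter of Rbm38 (an RNA-binding protein), and at intergenic regions nearest to 4921511C10Rik and Klhl25, with log2 changes of 1.27, 1.10, 1.10 and 1.02.

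The 5 falls included 2 cation channels. At Trpc1 (chromosome 9, 95749661 to 95750474) the promoter stood at 8.38 and 9.65 in Thy1+ and 3.99 and 4.34 in c-Kit+ cells (log2 change -1.06, SE 0.24, limma adjusted p = 0.0262). At Trpm4 (chromosome 7, 45332915 to 45333954), a cation channel opened by calcium, the values were 12.1 and 9.05 against 5.70 and 3.72. An intron of Palld (chromosome 8, 61590635 to 61591436), which codes for palladin, an actin-associated protein, fell from 13.1 and 12.1 to 5.70 and 5.58. Replicates were closer there than at Trpc1 or Trpm4. The promoter of the interferon-induced Ifitm2 (chromosome 7, 140955103 to 140956823) fell from 12.6 and 9.65 to 5.70 and 4.96.

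The knockout spermatogonia gave the same comparison in libraries that these calls did not use. Of the 15 rises that could be fitted there, 13 had the same sign. After centring each library on its median, 11 had both c-Kit+ above both Thy1+ libraries, an order found at 22.9% of all knockout regions fitted. Of the 4 falls fitted, 4 had the same sign and, centred likewise, 3 had both c-Kit+ below both Thy1+ libraries, an order found at 18.7%. The fold enrichments themselves, not centred, can overlap at such regions. At Gm5595 they were 9.11 and 7.67 in Thy1+ and 10.9 and 7.58 in c-Kit+ knockout cells. At Mgst1 the knockout values were 7.59 and 5.76 in Thy1+ and 12.8 and 10.5 in c-Kit+ cells, and upstream of Mir202 they were 4.56 and 5.12 against 10.4 and 5.83. The order did not hold everywhere. At Rbm38 the knockout values ran the other way, 10.1 and 7.03 in Thy1+ against 5.20 and 3.50 in c-Kit+ cells (limma adjusted p of the genotype by stage interaction 0.112). Before centring they also did so at Tns1, 10.6 and 11.5 in Thy1+ against 8.99 and 8.16 in c-Kit+ cells. At the Ccnjl promoter they were 7.09 and 7.03 against 5.20 and 4.66. After centring, the populations overlapped at Tns1 and Ccnjl, with knockout log2 changes of 0.13 and -0.02. In the knockout itself 0 of 10942 regions passed in limma (1221 at an unadjusted p under 0.05), and the genotype by stage interaction passed at 0 of the 9424 fitted (0%), 415 of which had an unadjusted p under 0.05.

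The 21 calls depend on the processing. None of them passed without centring, with quantile normalization, with the mean over all summits, or without the first Thy1+ or the second c-Kit+ library, and none of the 21 could be fitted with stricter peaks. With regions called in at least 2 libraries, and uncalled values set to the lowest, 117 of 15830 passed. Lost calls were not always smaller changes: across the alternatives that could be fitted, the log2 change was 1.26 to 1.49 at Gm5595 and 1.18 to 1.44 upstream of Mir202, while the Klhl25 region had one of -0.20 when peaks within 1000 bp were joined.

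Regions were also compared by whether they were called. In all, 1668 regions (4.78% of 34892) were called in both c-Kit+ libraries and neither Thy1+ library, and 447 (1.28%) in both Thy1+ libraries and neither c-Kit+ library. Pairs of 1 library from each population were the only ones called at 1019 regions (first Thy1+ and first c-Kit+), 480 (second Thy1+ and first c-Kit+), 157 (first Thy1+ and second c-Kit+) and 84 (both second), so the Thy1+ only count was below 2 of these 4 mixed counts. The counts move with the peaks that are admitted. When libraries were limited to an equal number of strongest peaks they were 921 and 717, and with stricter peaks 402 and 216. With 1 library a side, the counts were 4700 and 1426 without the first c-Kit+ library, 13798 and 571 without the second, 2500 and 2688 without the first Thy1+ library and 2008 and 3628 without the second. The regions were weak: median heights were 8 and 7 in the c-Kit+ libraries for the c-Kit+ only set and 8 and 7 in the Thy1+ libraries for the Thy1+ only set, against 12 to 18 for regions called in all 4. A missing call means that no peak passed the authors' threshold, not that acetylation was absent.

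The sets differed in where they lay. By the authors' class of location, promoters made up 20.6% of the c-Kit+ only regions (exact binomial 95% interval 18.7 to 22.6%), 40.9% of the Thy1+ only regions (36.3 to 45.7%) and 86.6% of the regions called in all 4. Introns held 44.5% (42.1 to 47.0%), 28.6% (24.5 to 33.1%) and 4.03%. Of the c-Kit+ only regions 19.8% lay over 50 kb from any listed start, against 9.62% of the Thy1+ only regions. The intervals cover counting error only, since regions of 1 library are not replicates. Promoters took the smaller share of the c-Kit+ only set also without the first c-Kit+ library (22.4% and 53.6%) with an equal number of peaks (23.0% and 46.3%) and with stricter peaks (42.3% and 70.4%). Without the first Thy1+ library the shares were 31.3% and 29.0%.

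**Figure D3:**
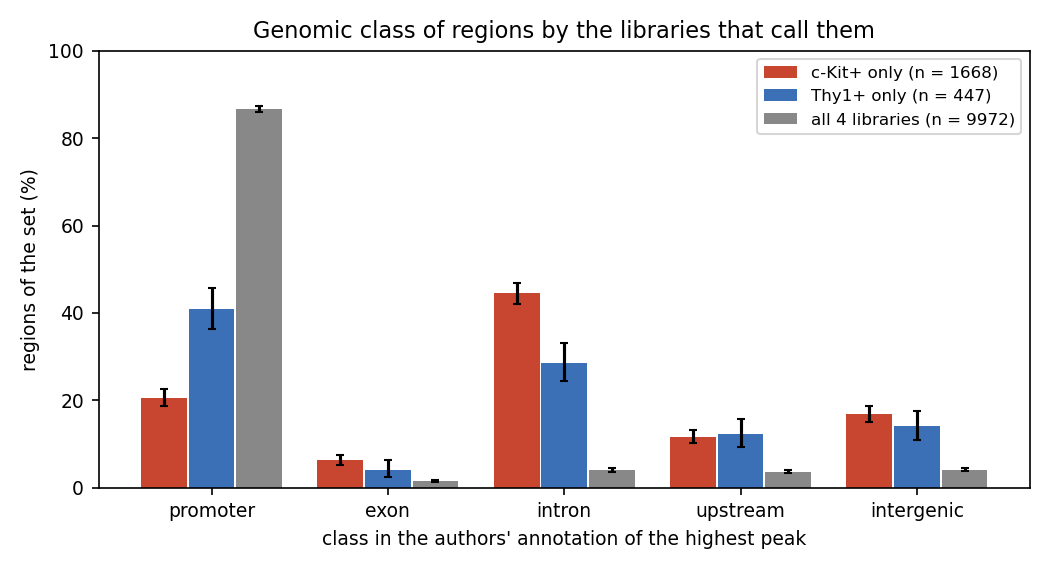
Share of regions in each class of location for the c-Kit+ only set, the Thy1+ only set and the regions called in all 4 libraries, with exact binomial 95% intervals as error bars (counting error only). Promoters make up 20.6%, 40.9% and 86.6%.

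Promoters in the sets differed in their CpG content. RefSeq windows of 300 bases (250 before and 50 after a start) overlapped c-Kit+ only regions and no other region at 128 starts and Thy1+ only regions at 69, of 32817 windows read. The median ratio of observed to expected CpG was 0.495 in the c-Kit+ only windows, 0.693 in the Thy1+ only windows, 0.825 in the 9904 windows over regions called in all 4, and 0.383 over all windows. The GC box was found in 42.2%, 66.7% and 70.9% of the windows of the c-Kit+ only, Thy1+ only and all-library sets, and in 35.6% of all windows. The E-box CACGTG was found in 7.81%, 13.0% and 10.99%, and in 7.15% of all. The AP-1 letters TGANTCA were found in 9.38% (12 of 128), 1.45% (1 of 69) and 3.99%, and in 7.81% of all. The NR5A letters AAGGTCA, searched after other values had been seen, were found in 7.03% (9 of 128), 1.45% (1 of 69) and 2.74%, and in 4.72% of all. The STRA8 letters CNCCTCAG were found in 11.7%, 7.25% and 9.40%, and in 7.94% of all. CCAAT was found in 28.1%, 33.3% and 37.2%, and in 37.4% of all. The ETS letters CCGGAAG were found in 7.03%, 7.25% and 21.4%, and in 8.86% of all. The GATA letters AGATAA, also searched later, were found in 10.2%, 5.80% and 4.48%, and in 11.2% of all. The CRE (TGACGTCA), A-MYB (TAACGG) and E2F (TTTCGCGC) letters were found in at most 4.42% of any set. Both strands were searched, overlaps between motifs were not removed, and a match describes letters only.

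The 10 strongest c-Kit+ only regions, ranked by the lower of the c-Kit+ values, had fold enrichments of 7.44 to 9.30 in the second c-Kit+ library. They included an exon of Cercam (9.69 and 8.68), the promoter of the mitochondrial carrier gene Slc25a34 (9.12 and 8.68), an intron of Abr (8.55 and 9.30), and the promoter of Esrp2, an epithelial splicing regulator (10.3 and 7.44). Introns of Etv6, an ETS family repressor, gave 2 of the 10 (9.12 and 8.68, 9.69 and 7.44). Regions nearest to Cep110, Ccnjl and Med9 were also among them. All 10 were called in both knockout c-Kit+ libraries, and 8 also in both knockout Thy1+ libraries. The shares over all regions were 39.4% and 41.5%, and these 10 were picked for strength.

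Some genes were nearest to several c-Kit+ only regions. Of 17923 genes listed in the files, 1224 (6.83%) were nearest to at least 1 c-Kit+ only region and 371 (2.07%) to at least 1 Thy1+ only region. Gramd1b, which codes for a carrier of cholesterol between membranes, had 8 c-Kit+ only regions (chromosome 9, 40302276 to 40461767), 4 in introns and 4 upstream, at fold enrichments of 3.99 to 8.55 and 3.72 to 6.20. Acsbg1, an acyl-CoA synthetase, and Itpr1, the receptor through which inositol trisphosphate releases calcium, had 6 each. Cdon, Etv6, Itih5, Klhl29, Med9, Pxk and Tgfbr3 had 5 each. These genes differed in how many regions of any kind lay nearest to them. There were 49 at Gramd1b, 26 at Acsbg1 and 33 at Itpr1, and from 8 at Pxk to 41 at Tgfbr3 among the genes with 5. Over all regions 4.78% were c-Kit+ only. At Klhl29 and Etv6, 5 of 5 of the c-Kit+ only regions were also called in both knockout c-Kit+ libraries, and at Gramd1b 2 of 8, against 39.4% of all regions. None of the 5 at Cdon was called in both spermatocyte or both spermatid libraries, where 64.6% and 51.5% of all regions were. For Thy1+ only regions the highest number was 3, at Capg, Psd2, Sh3pxd2a and Tnxb, and 34 genes were tied at 2. Regions of any kind numbered 13, 15, 27 and 14 at these first 4 genes, and 1.28% of all regions were Thy1+ only.

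Of the 10 strongest Thy1+ only regions, ranked likewise, 5 were promoters: Gm19897 (9.96 and 9.05 in the Thy1+ libraries), the store-operated calcium channel gene Orai2 (7.34 and 7.84), the guanine nucleotide exchange factor Vav3 (6.29 and 7.24), the calponin gene Cnn2 (6.29 and 6.64) and the chondroitin sulfotransferase Chst11 (6.29 and 6.64). The others were introns of the lipoprotein receptor Lrp1 (7.34 and 7.24), the sphingosine phosphate receptor S1pr2 (6.29 and 7.24) and Synj2 (6.29 and 6.64), an exon of the JNK scaffold Mapk8ip1 (6.81 and 7.84), and an intergenic region nearest to the collagen gene Col1a1 (6.29 and 7.24). In the knockout, 9 of the 10 were called in both Thy1+ libraries and 2 in both c-Kit+ libraries. The shares over all regions were 41.5% and 39.4%, and these 10 were likewise picked for strength.

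The genes that define the populations were then examined at their promoters, by regions within 1 kb of a listed start. Where a promoter held several regions, the highest value in each library is given. Over all 17923 listed genes, 51.5% had a promoter called in all 4 libraries and 34.7% in none. A c-Kit+ only promoter was found at 1.12% of genes and a Thy1+ only promoter at 0.67%. Kit was called at 8.55 and 6.20 in the c-Kit+ libraries and in only the second Thy1+ library, at 5.43. Thy1 itself had no promoter call in any. Of 31 listed genes of undifferentiated spermatogonia, 9 were called in all 4, 15 in none and 1, Zbtb16, in the Thy1+ libraries only. Zbtb16 codes for PLZF, a zinc finger repressor of undifferentiated spermatogonia, and stood at 5.24 and 6.03. In the knockout Zbtb16 was called in the first Thy1+ library (8.10) and the first c-Kit+ library (5.67). Defining genes such as Gfra1, Id4, Sall4 and Lin28a had no promoter call in any of the 4 wild-type libraries. Etv5, a factor induced by GDNF, was called at 8.38 and 9.05 in Thy1+ and 11.4 and 12.4 in c-Kit+ cells (log2 change 0.50, limma adjusted p = 0.466). Of 25 genes of spermatogonial differentiation, 6 were called in all 4, 14 in none, Stra8, Sohlh1 and Sohlh2 among them, and 0 in 1 population only. In these lists 0 of 9 and 0 of 6 fitted promoters passed in limma, with medians of -0.05 and 0.06 on the log2 scale against 0.01 over all fitted promoters. Of the germ cell genes, Dazl was called in all 4 (7.34, 7.24, 7.98 and 5.58) and Ddx4 in 3 (7.34, 5.43 and 4.56).

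Of 29 mitotic genes 20 were called in all 4 libraries, and Ccnd1, which codes for cyclin D1, was called in the Thy1+ libraries only, at 5.24 and 5.43. In the knockout Ccnd1 was called in the first Thy1+ library (8.61) and in both c-Kit+ libraries (3.78 and 5.25). Ccnd3 had an intron region in the wild-type Thy1+ libraries only (6.29 and 5.43). Of 26 genes of meiotic prophase 7 were called in all 4 wild-type libraries and 12 in none. Msh4, a meiotic recombination protein, was called in the wild-type Thy1+ libraries only (5.24 and 3.62, the second close to the lowest that is called). In the knockout Msh4 was called in the first c-Kit+ library alone (3.78). Sycp1, of the synaptonemal complex, stood at 11.004 and 7.24 in wild-type Thy1+ cells. Of the wild-type c-Kit+ libraries, Sycp1 was called in the first only, at 5.13. In each list 0 fitted promoters passed in limma, with medians of -0.04 (mitotic) and -0.19 (meiotic). Of 31 growth factor signalling genes 20 were called in all 4. There, 6 genes lay nearest to a c-Kit+ only region, Jun, Spred1, Pik3cd, Tcf7l1, Bmpr1a and Smad3, which is 19.4% against 6.83% over all genes, and 2, Ccnd1 and Egr1, nearest to a Thy1+ only region, which is 6.45% against 2.07%.

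Of 18 genes that make, carry, degrade or bind retinoic acid, 5 (27.8%, against 6.83% over all genes) were nearest to a c-Kit+ only region, with 9 regions. Aldh1a1, a retinaldehyde dehydrogenase that makes retinoic acid, had its promoter called in the c-Kit+ libraries only, at 7.41 and 4.34, with an intron region at 3.42 and 4.34. Cyp26b1, which degrades retinoic acid, had 2 such regions (7.41 and 6.82 in an exon, 4.56 and 5.58 between genes). Dhrs3, a retinaldehyde reductase, had 2, and Stra6, a membrane protein of retinol uptake, 1. The merged region at the Dhrs3 promoter was called in all 4 libraries, at 6.29 and 4.83 in Thy1+ and 10.3 and 7.44 in c-Kit+ cells. Its log2 change was 0.72 (SE 0.23, limma adjusted p = 0.205). When the promoter was read across wild-type and knockout libraries, the second c-Kit+ value was 3.72, below both Thy1+ values. Of the receptors, Rara stood at 10.5 and 12.7 in Thy1+ and 10.8 and 10.5 in c-Kit+ cells, and Rarg had a small promoter region called in the Thy1+ libraries only (4.19 and 5.43) beside one called in all 4. Of the 7 fitted promoters of the list 0 passed in limma, with a median of -0.06 on the log2 scale.

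Markers of somatic cells of the testis were counted in the same way. Of 7 Leydig cell markers, 3 had promoters called in both c-Kit+ and neither Thy1+ library, against 1.12% over all genes. Cyp11a1, the enzyme that makes pregnenolone from cholesterol, stood at 6.84 and 6.20, and Star, which carries cholesterol into mitochondria, at 6.27 and 6.20. These pairs are the highest value of each library over several regions. Single c-Kit+ only promoter regions stood at 6.84 and 4.96 and at 5.13 and 6.20 for Cyp11a1. For Star they stood at 5.70 and 6.20 and at 6.27 and 4.34. Lhcgr, the receptor for luteinizing hormone, stood at 7.41 and 6.20 in a single region. With Hsd3b1, a steroid dehydrogenase with an intron region at 6.27 and 4.96, 4 of the 7 genes (57.1%, against 6.83%) were nearest to 9 c-Kit+ only regions, and 0 to a Thy1+ only region (2.07% over all genes). The summed promoter fold enrichment of the Leydig list was 7.86 and 7.84 in the Thy1+ and 30.8 and 26.04 in the c-Kit+ libraries. Cyp17a1, Hsd3b1 and Insl3 had no promoter call in any of the 4, and Nr5a1 was called in all 4. The count of 9 regions was 7 with an equal number of peaks, 13 without the first and 21 without the second c-Kit+ library, and 2 with stricter peaks. Some of the 9 lay side by side at the same promoter, and the count was 6 when peaks within 1000 bp were joined. A list of 19 further genes of steroid and cholesterol metabolism was chosen after other values had been seen. Of these, 6 (Scarb1, Fdx1, Fdxr, Por, Soat1 and Npc1) were nearest to c-Kit+ only regions (31.6%, against 6.83% over all genes). To a Thy1+ only region 0 were nearest (2.07% over all genes). Their promoters were called in all 4 libraries at 13 of 19, and 0 of the 12 fitted passed in limma.

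**Figure D4:**
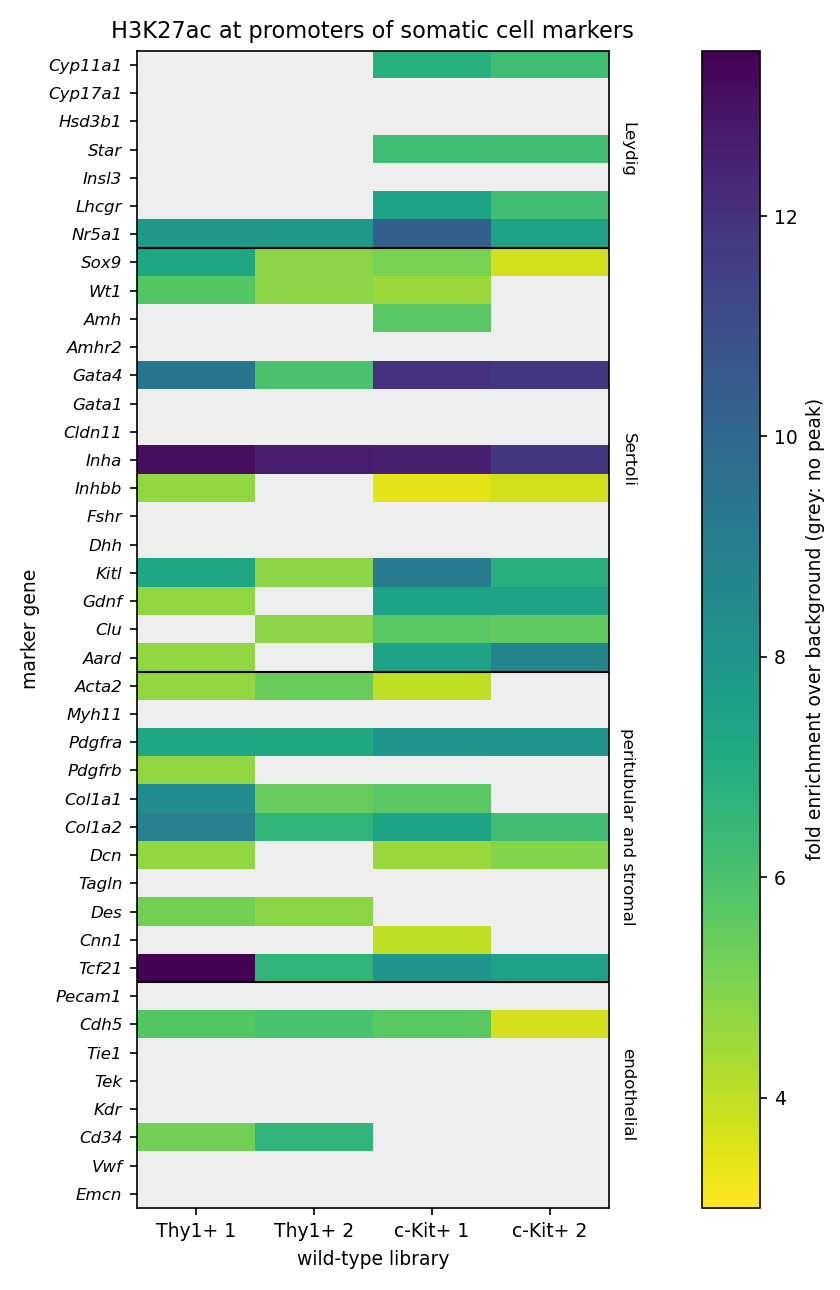
Highest fold enrichment of H3K27ac at promoters of somatic cell markers (rows, by cell type) in the 4 wild-type libraries (columns), with grey for no peak. Cyp11a1, Star and Lhcgr have calls in the c-Kit+ columns alone, and Des and Cd34 in the Thy1+ columns alone.

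Promoters of 1 stromal and 1 endothelial marker were in the Thy1+ only set. Des, the muscle intermediate filament desmin, was called in the Thy1+ libraries only, at 5.24 and 4.83, and Cd34, a marker of vessels and stromal progenitors, at 5.24 and 6.64. Of 11 stromal genes 3 (27.3%, against 2.07% over all genes), Des, Col1a1 and Tcf21, were nearest to 4 Thy1+ only regions and 0 to a c-Kit+ only region. Their summed promoter fold enrichment was 57.6 and 36.2 in the Thy1+ and 41.6 and 26.7 in the c-Kit+ libraries, ranges that overlap, with 8, 6, 7 and 4 of 11 promoters called. Sertoli cell markers had 8 and 6 of 15 promoters called in the Thy1+ and 10 and 8 in the c-Kit+ libraries, with summed values of 57.1 and 38.0 against 73.0 and 59.5. Amhr2, Gata1, Cldn11, Fshr and Dhh had no promoter call in any, and 2 Sertoli genes, Gata4 and Dhh, were nearest to c-Kit+ only regions (13.3%, against 6.83% over all genes). Of 8 endothelial markers 1, Cdh5, which codes for the cadherin of vessel junctions, was nearest to 2 c-Kit+ only intron regions (6.27 and 4.96, 4.56 and 4.34), and 1, Cd34, to a Thy1+ only region, a share of 12.5% each way. Promoters of these 2 were called, and the endothelial sums were 11.004 and 12.7 against 5.70 and 3.72. All 7 listed macrophage and blood genes had no promoter call in any wild-type library. The part of these cells in the differences between c-Kit+ and Thy1+ libraries, the retinoic acid and steroid genes included, was not tested. In such bulk libraries, fewer cells of a type and less acetylation per cell cannot be told apart.

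In the knockout c-Kit+ libraries 5 and 3 of the 7 Leydig promoters were called, against 3 and 2 in the knockout Thy1+ libraries. Lhcgr was called in all 4 of them, at 5.57 and 4.48 in Thy1+ and 8.04 and 5.83 in c-Kit+ cells, and Star in 3. Cyp11a1 was called in the first knockout c-Kit+ library alone, at 6.15. Des was called in both knockout Thy1+ libraries (8.61 and 5.76) and neither knockout c-Kit+ library. Of the 11 stromal promoters, 10 and 8 were called in the knockout Thy1+ and 7 and 4 in the knockout c-Kit+ libraries. These libraries held 34681 and 21286 peaks for Thy1+ and 36362 and 22949 for c-Kit+ cells. The share over all genes is not given beside these counts, so they cannot be set against genes in general.

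The wild-type sets were also looked up in all knockout libraries. Of the c-Kit+ only regions, 49.1% were called in both knockout c-Kit+ libraries and 23.1% in both knockout Thy1+ libraries, where 39.4% and 41.5% of all regions were. Of the Thy1+ only regions, 11.6% and 60.0% were. Promoters made up 41.0% of all regions and 40.9% of the Thy1+ only set, but 20.6% of the c-Kit+ only set. Outside promoters, 49.2% of the c-Kit+ only regions were called in both knockout c-Kit+ and 20.8% in both knockout Thy1+ libraries, against 19.4% and 19.2% of all such regions, and 8.71% and 56.1% of the Thy1+ only regions were. These libraries did not define the sets.

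In the adult knockout cells, of the c-Kit+ only regions 76.3% were called in both libraries of pachytene spermatocytes and 33.0% in both libraries of round spermatids, against 64.6% and 51.5% of all regions. Of the Thy1+ only regions 63.8% and 68.9% were. Regions called in both spermatocyte libraries and neither spermatid library were 485 of the c-Kit+ only set (29.1%) and 13 of the Thy1+ only set (2.91%), against 9.68% of all regions. Outside promoters the spermatocyte and spermatid shares were 73.9% and 26.5% for the 1324 c-Kit+ only regions, 56.4% and 62.1% for the 264 Thy1+ only regions, and 46.7% and 28.4% for all such regions. There the spermatid share of the c-Kit+ only set lay near that of all regions. At promoters the shares were 85.5% and 58.1% for the c-Kit+ only set, 74.3% and 78.7% for the Thy1+ only set and 90.3% and 84.8% for all promoter regions, so both sets lay below all promoters. The spermatocyte shares were in the other order without the first (62.1% and 78.3%) or the second c-Kit+ library (47.5% and 67.6%). The spermatid shares were 46.6% and 45.3% without the first Thy1+ library and kept their order without the first c-Kit+ library (30.5% and 76.8%) and with stricter peaks (63.7% and 88.0%). Sertoli marker promoters were called at 13 and 13 of 15 in the spermatocyte libraries and 5 and 4 of 15 in the spermatid libraries, and Leydig marker promoters at 5 and 5 against 2 and 2 of 7. Stromal marker promoters were called at 7 and 5 against 8 and 5 of 11, and endothelial ones at 4 and 4 against 3 and 3 of 8. Macrophage and blood markers went the other way, at 2 and 1 of 7 in the spermatocyte and 7 and 7 in the spermatid libraries. The spermatocyte libraries held 69042 and 64056 peaks and the spermatid libraries 73316 and 63322. The share over all genes is not given beside these counts, so they cannot be set against genes in general. The part of somatic cells in these shares was not tested. Stage, age and genotype cannot be told apart between the wild-type spermatogonia and these adult knockout cells.

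**Figure D5:**
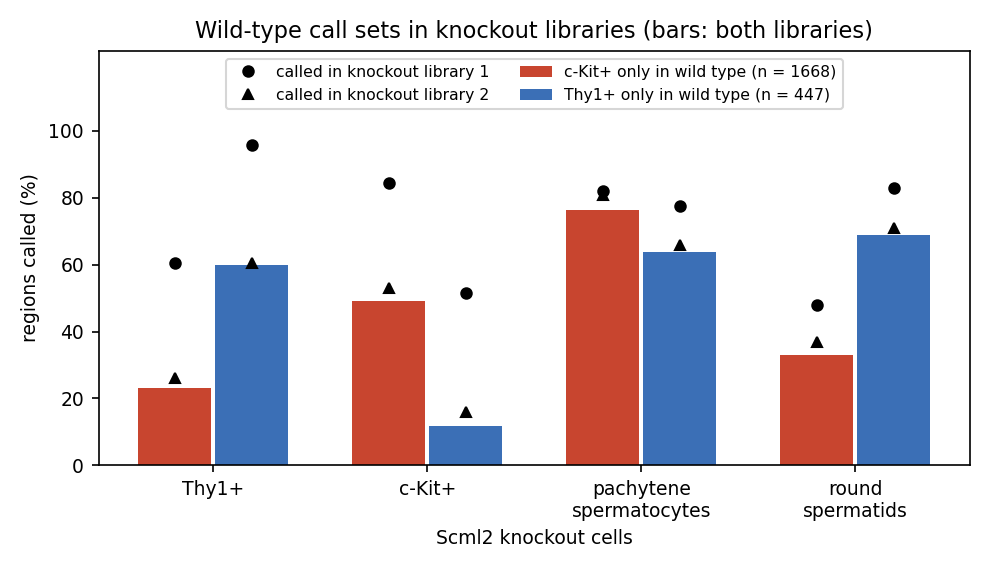
Share of the wild-type c-Kit+ only and Thy1+ only regions that were called in Scml2 knockout cells. Bars give calls in both libraries and points each library. In round spermatids the bars are 33.0% and 68.9%, and in pachytene spermatocytes 76.3% and 63.8%.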

How the data were processed

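Cells, libraries and groups were taken from the sample titles. Bowtie, MACS2 and the build mm10 are named in the submitters' processing notes, without versions or parameters. The deposited tables give, per the file headers, the summit height (a signal in whole fragments), a fold enrichment (ratio) and −log10 p and −log10 q values. Peaks were called by library. In each library the deposited fold enrichment equalled (height + 1) over a constant (background + 1), so no local or input control entered it, and read depth is unknown.

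The highest summit per peak was kept, mitochondrial peaks were left out, peaks overlapping by at least 1 bp were merged, and regions overlapping a peak of any of 16 inputs were removed. Regions called in all 4 libraries were tested in limma 3.58.1 (R 4.3.3; lmFit and eBayes, Benjamini-Hochberg adjusted p under 0.05) on log2 fold enrichment centred on each library's median. Other calls are counts with no test. Code was tested on simulated data. Python 3.11.15 with pandas 2.3.3 was used. Alternatives were other scalings, summits, input rules, merging, thresholds, peak numbers, a variance trend, a replicate block and leaving out each library.

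Regions named were those past the threshold, the 10 strongest of each call set, the 10 genes with most regions of each set (fewer where tied), genes of 11 lists, and a 12th list, of steroid and cholesterol genes, chosen after other values had been seen. The members and lists were chosen with earlier results of these data known. Genes are those listed in the files, mostly the nearest to a peak. Promoter windows and miR-202 are from RefSeq tables of GRCm38.p6, the assembly of mm10. Some regions and genes that meet these rules are not reported here.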

Additional observations from a re-analysis of the deposited data

How the results depend on the processing

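The number of regions that differed between c-Kit+ and Thy1+ cells in limma (21) was 22 with input regions kept, 21 with only the WT input regions removed, 23 with peaks joined within 1000 bp and 15 with an intensity trend. It was 9 when merging needed an overlap of 50% of the shorter peak, 10 with an equal number of strongest peaks per library and 117 when regions called in at least 2 libraries were tested (15830 in place of 9972) and uncalled values set to the lowest, which are changed together. It was 0 without centring (367 at an unadjusted p under 0.05), 0 with quantile normalization (829), 0 with the mean over all summits (726) and 0 with stricter peaks (543). With 1 library left out it ranged from 0 to 16, at 0 without Thy1+ replicate 1 or c-Kit+ replicate 2 (790 and 836 at an unadjusted p under 0.05). The cause was not tested. Joining peaks within 1000 bp turned the Klhl25 region to -0.20, the one change of sign among the 21 regions and these alternatives.

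The c-Kit+ only count of 1668 was 402 with stricter peaks and 921 with an equal number of peaks, and ranged from 2008 to 13798 with 1 library left out. The Thy1+ only count of 447 was 216, 717 and 571 to 3628. Leaving out a library also loosens the rule, since 1 call then stands for both. In alternatives added after the data were seen, the spermatid share of the Thy1+ only set was 45.3% without the first Thy1+ library. The differences in peak number and promoter share kept their sign, at 0.0957 to 0.70 and -21.9 to -3.16 points with 1 library left out. The interaction count was 0 in all 11 alternatives.

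The labels do not say whether replicate numbers pair the libraries. Deviations of same-numbered libraries had a correlation of 0.063 over 9972 regions, which does not settle it. With a replicate block 57 regions passed (45 higher, 12 lower), the 21 among them, and the other values kept their side of the threshold. Read depth is unknown, and peaks near the lowest height limit the call sets.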
